A study of Saccharomyces cerevisiae with 36 samples.

Results

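The genes described here are 42 of the genes that code for the proteins of the small subunit of the cytosolic ribosome in Saccharomyces cerevisiae. They were taken by their systematic names from a list of small-subunit genes that runs from RPS0A to RPS31, and all 42 were found among the 6717 gene identifiers of the deposited tables. Another 15 small-subunit genes of the tables, ASC1 and copies of RPS21 to RPS30, are outside the list. The study grew strain 12 (dominant) and strain 11 (non-dominant) alone or together in must of Nebbiolo grapes, in order to see what happens in the cells when one strain displaces the other. Each culture was sampled at 12, 20 and 30 h, which gave 12 groups of strain, culture and time with 3 libraries each. According to the labels the times stand for early growth, mid growth and the onset of the stationary phase. Both strains carried a fluorescent protein, GFP or eSapphire, and the labels give cell sorting by flow cytometry, followed by RNA extraction and amplification, for all groups. The fermentations included ones with the markers swapped, and the labels do not say which library had which marker.

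A small subunit holds 1 molecule each of its proteins, bound to a ribosomal RNA, and its task is to hold the mRNA and to check the pairing of tRNA with codon. In yeast most of these proteins come from pairs of nearly identical genes, the A and B paralogs, left by an ancient duplication of the genome. The genes of both ribosomal subunits are known to be transcribed together at a rate that follows growth. The factor Rap1 binds upstream of many of them and recruits Fhl1 and Ifh1, Sfp1 is active while nutrients are plentiful, and the TOR and protein kinase A pathways switch the whole set down when growth slows or cells are stressed.

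Each library held between 35400 and 530376 reads on genes, with a median of 230090 at 12 h, 88929 at 20 h and 91418.5 at 30 h. Libraries of 20 h had a lower median depth than those of 12 h in 3 of the 4 strains and cultures, and in strain 12 in mixed culture the medians were 227200 reads at 20 h and 218761 at 12 h. Of the 42 genes, 34 passed the filter on low counts, which left 3670 genes, and could be tested. A gene could pass this filter through its 12 h libraries alone, so directions over all 42 genes are given beside the larger counts. The other 8 were not tested, among them RPS4A, RPS6A, RPS6B, RPS14B and RPS24A. They held 1036 reads in the 36 libraries together, 828 of them in the 12 libraries of 12 h, and at most 42 in any library.

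Near-identical paralogs come before the values, because a read that matches both copies cannot be given to either. The coding sequences of RPS6A and RPS6B, whose protein is phosphorylated when TOR is active, were 99.16% identical in R64 (a later build than Saccer2, the build of the deposited tables). The 120 coding bases below come from the middle of both genes on the minus strand, RPS6A at chrXVI:377588-377707 and RPS6B at chrII:592009-592128 in R64. They are shown because so few bases tell these copies apart, and capitals mark the base that differs.
RPS6A: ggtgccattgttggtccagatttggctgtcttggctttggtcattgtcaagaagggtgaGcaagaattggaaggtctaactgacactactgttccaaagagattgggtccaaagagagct
RPS6B: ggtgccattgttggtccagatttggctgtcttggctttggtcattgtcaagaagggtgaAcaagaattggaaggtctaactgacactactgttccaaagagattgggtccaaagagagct
Of all windows of 75 bases, the read length, in these genes, 36.9% occurred once in the coding sequences of the genome. The share was 70.9% for RPS4A and RPS4B and 74.0% for RPS24A and RPS24B, against 93.9% for RPS19A and RPS19B and 100% for RPS15. Over the 36 libraries these 3 pairs held 50.6 (RPS6A) to 944 (RPS4B) reads per kb of coding sequence, and RPS15 held 15814. How reads with several matches were counted is not given in the sources used here, so levels of these 3 pairs are uncertain and their part in the low counts was not tested.

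**Figure D1:**
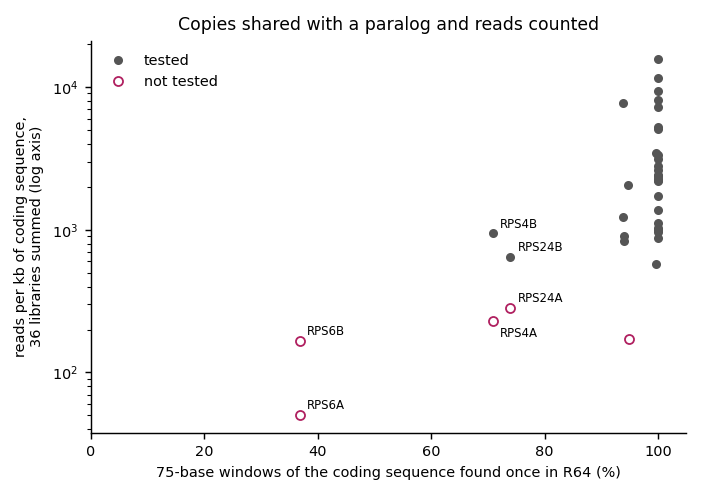
Reads per kb of coding sequence, summed over the 36 libraries (vertical, log axis), against the percent of 75-base windows of the coding sequence found once among R64 coding sequences (horizontal), 1 point for each of 37 genes. The named genes of the RPS6, RPS4 and RPS24 pairs lie under 75% and hold 50.6 to 944 reads per kb. Open circles are genes not tested.

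RPS9A and RPS9B, by contrast, can be told apart along their whole length, with 99.6% of windows found once. Their protein lies at the shoulder of the subunit and takes part in the accuracy of decoding. The same 120 coding bases of each, on the plus strand at chrXVI:405685-405804 and chrII:605155-605274 in R64, differ at the 13 bases in capitals. They are shown because the values of both copies over time are set side by side further on.
RPS9A: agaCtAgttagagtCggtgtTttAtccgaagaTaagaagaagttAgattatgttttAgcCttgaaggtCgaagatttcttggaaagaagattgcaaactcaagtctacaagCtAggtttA
RPS9B: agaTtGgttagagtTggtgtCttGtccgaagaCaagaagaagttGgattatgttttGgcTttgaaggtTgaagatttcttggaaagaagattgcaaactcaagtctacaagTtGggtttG

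At 12 h the genes were among the more abundant mRNAs of the cells. By the deposited RPKM, their median at 12 h was 417 against 33.9 for all genes, and 26 of the 42 stood at or above the percentile 90 of all genes. In the libraries of 20 and 30 h their median RPKM was 122 against 38.2, and 12 of 42 stood at or above that percentile. Some deposited gene lengths exceed the R64 coding sequence, which lowers the RPKM of those genes. The lengths are 726 against 360 bases for RPS26A and 637 against 327 for RPS25A. Levels below are TMM-scaled CPM, that is, reads scaled to libraries of equal size after edgeR had adjusted the library sizes, and levels of different genes are compared only per kb of R64 coding sequence. RPS15, a head protein beside the decoding site, was the most abundant, with 2049 CPM per kb as the mean of the 12 groups. RPS26A, whose protein touches the mRNA where it leaves the ribosome, followed at 1658 CPM per kb, and RPS20, a head protein marked with ubiquitin when ribosomes collide, at 1394. The lowest was RPS6A with 7.42 CPM per kb, which is one of the genes that cannot be counted reliably. Levels per kb thus differed widely among the genes of the set.

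The letters upstream of the genes were searched for the sites of known regulators. In the 500 bases before the start codon, on either strand, the Rap1 letters ACCCATACA were present for 9 of 42 genes (21.4%), against 1.1% of 6006 nuclear genes. The looser form ACCCNNACA, which includes the first, was present for 16 of 42 (38.1%), against 5.5%. The stress element letters AGGGG were present for 10 of 42 (23.8%), against 34.1%, and the TATA letters TATAAA for 18 of 42 (42.9%), against 60.5%. These matches are descriptions of letters in a window and not of binding. The stretches of 60 bases below, read toward the gene, are shown because their genes are described by their values in the next paragraphs, and capitals mark ACCCNNACA or its reverse complement. They lie in R64 at chrXIII:551596-551655 (plus strand) for RPS16A, chrIV:308117-308176 (minus) for RPS16B, chrII:332518-332577 (plus) for RPS11B and chrXIII:732199-732258 (plus) for RPS10B.
RPS16A: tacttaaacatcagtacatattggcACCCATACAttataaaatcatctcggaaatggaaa
RPS16B: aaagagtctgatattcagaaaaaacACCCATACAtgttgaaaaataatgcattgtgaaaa
RPS11B: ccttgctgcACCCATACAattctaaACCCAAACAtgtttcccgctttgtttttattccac
RPS10B: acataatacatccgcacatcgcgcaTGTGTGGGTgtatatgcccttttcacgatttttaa

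Time in culture was the condition with which the genes moved most. Together the 42 genes made up 1.02 to 1.98% of reads per library at 12 h. Libraries of 20 h had 0.236 to 0.539% and those of 30 h had 0.299 to 0.687%, so that no library of 20 or 30 h reached the lowest one of 12 h. These are shares of the RNA sequenced, and less RNA of these genes per cell cannot be told apart from fewer cells that express them. The 95% Wilson intervals of these shares, which cover counting error only, were 0.997 to 1.05% for the lowest library of 12 h and 0.643 to 0.734% for the highest of the later ones. The mean share fell from 1.301% ± 0.0989 to 0.396% ± 0.105 (SD, n = 3 libraries) between 12 and 20 h in strain 11 in single culture, a ratio of 3.29. It fell from 1.29% ± 0.152 to 0.466% ± 0.0645 in strain 11 in mixed culture, a ratio of 2.78. In strain 12 it fell from 1.49% ± 0.418 to 0.275% ± 0.0536 in single culture and from 1.94% ± 0.0512 to 0.4% ± 0.0355 in mixed culture, ratios of 5.402 and 4.85. Replicate 1 of strain 12 in single culture at 12 h stood lower, at 1.02%, than the other libraries of its group, at 1.84 and 1.60%.

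**Figure D2:**
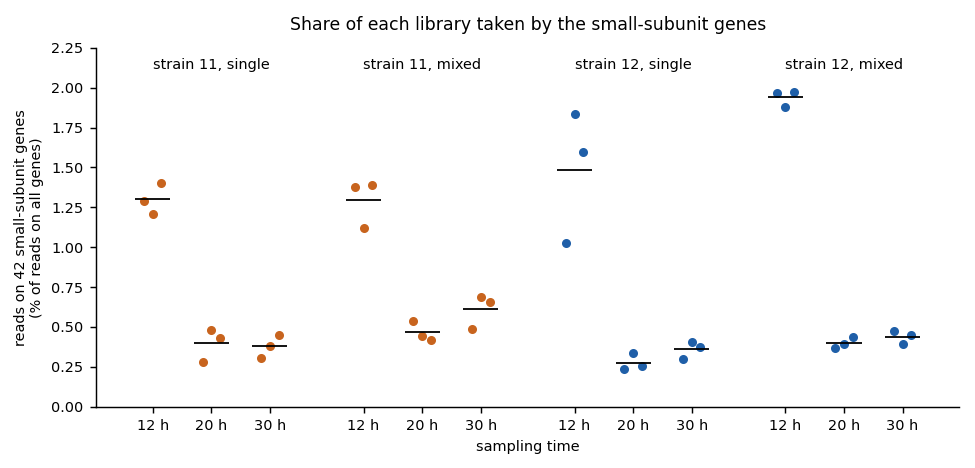
Percent of all reads on genes that fell on the 42 small-subunit genes (vertical) in each of the 36 libraries, by strain, culture and sampling time. Points are libraries and bars the mean of 3. The 12 h libraries sit between 1.02 and 1.98%, and the libraries of 20 and 30 h between 0.236 and 0.687%.

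By gene, the fall from 12 to 20 h was tested in each strain and culture with edgeR's quasi-likelihood test, and a gene was called where p, adjusted by Benjamini-Hochberg over the 3670 genes, did not exceed 0.05. These p-values rest on the spread between libraries within groups, which the labels give as triplicates. That spread was estimated over all 12 groups together, with information shared across genes, and not from the groups compared alone. The paper took aliquots at 3 phases of the fermentation, and the tests did not pair libraries of the same fermentation over time. A log2 fold change compares the later or first-named group with the other, and SE is its standard error. In strain 12 in mixed culture 33 of the 34 tested genes were lower at 20 h, against 12.2% of all tested genes that were lower, and the median log2 fold change of the 34 was -2.52. In strain 12 in single culture 25 were lower (12.6% of all genes), with a median of -2.35. In strain 11, 22 were lower in single culture (13.7% of all genes) and 17 in mixed culture (2.72% of all genes), with medians of -1.55 and -1.44. No gene of the set was called higher at 20 h in any of the 4 steps, where 15.1, 3.05, 13.2 and 11.6% of all genes were called higher (strain 11 in single and mixed culture, then strain 12). Log2 fold changes above 0 were found for 2 of the 34 genes in strain 11 and 1 in strain 12, both in single culture. Over all 42 genes, tested or not, the mean level was lower at 20 h for 42 in both mixed cultures, for 41 in strain 12 in single culture and for 40 in strain 11 in single culture. Without 1 library in turn the counts were 31 to 34, 21 to 25, 19 to 23 and 10 to 15 in the same order. The lowest counts of strain 11 in mixed culture came without replicate 1 of 12 h or replicate 2 of 20 h (10 genes each) and without replicate 3 of 20 h (11 genes).

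Some genes for proteins of the head, the part of the subunit that swivels over the mRNA, are given first. Whether the parts of the subunit differed was not tested. RPS15 (YOL040C, chrXV:253148-253576, minus strand, Saccer2 as in the deposited tables) is the most abundant gene of the set. Its level in strain 12 in single culture was 1713, 1918 and 1070 CPM in the 3 libraries of 12 h and 194, 197 and 261 CPM in those of 20 h. Strain 11 in single culture had 2160, 1540 and 1624 CPM at 12 h and 194, 431 and 288 CPM at 20 h. Every 12 h library thus lay above every 20 h library in both. The log2 fold changes were -2.83 (SE 0.34, edgeR adjusted p = 2.02e-09) in strain 12 and -2.57 (SE 0.33, adjusted p = 9.1e-09) in strain 11. In mixed culture the log2 fold changes of RPS15 were -2.10 in strain 12 and -1.61 in strain 11, and both were called (SE 0.30 in each).

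RPS31 (YLR167W, chrXII:498949-499407, plus strand) is made as a fusion of ubiquitin with a ribosomal protein of the beak, so that its mRNA also supplies ubiquitin. Its level in strain 12 in mixed culture was 776, 1042 and 984 CPM at 12 h and at 100.4, 159.5 and 138 CPM at 20 h. For strain 11 in mixed culture it was 367, 507 and 450.2 CPM and then 150.4, 252 and 154 CPM. The groups did not overlap in either strain. Log2 fold changes were -2.83 (SE 0.38, adjusted p = 5.62e-08) and -1.28 (SE 0.39, adjusted p = 0.0398), and those in single culture were -2.93 in strain 12 and -1.81 in strain 11, both called.

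RPS18B (YML026C, chrXIII:222987-223828, minus strand), another head protein, had one of the largest falls in strain 12 in single culture. It was at 100.4, 459 and 223 CPM at 12 h and at 12.1, 28.2 and 23.7 CPM at 20 h. All 12 h libraries were above all 20 h libraries, and those of 12 h differed widely among themselves. The log2 fold change was -3.59 (SE 0.69, adjusted p = 4.77e-05). RPS16B (YDL083C, chrIV:306926-307789, minus strand) codes for a head protein whose tail reaches the tRNA. Its level in strain 11 in mixed culture was 84.8, 70.4 and 168 CPM at 12 h and at 46.3, 14.8 and 16.2 CPM at 20 h, with no overlap. The log2 fold change of RPS16B was -2.12 (SE 0.66, adjusted p = 0.0432), and it was no longer called without any of 5 of the 6 libraries in turn.

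RPS25A of the head had low counts. RPS25A (YGR027C, chrVII:534136-534789, minus strand), known for its part in initiation at internal sites, was at 85.3, 125 and 193 CPM in strain 12 in mixed culture at 12 h and at 22.9, 0 and 8.14 CPM at 20 h, a log2 fold change of -3.42 (SE 0.61, adjusted p = 1.52e-05) with no overlap.

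Among proteins of the body and platform, RPS22A (YJL190C, chrX:74909-75301, minus strand), which binds the central domain of the ribosomal RNA, was lower at 20 h in all 4 steps. Strain 12 in mixed culture had 334, 381 and 711 CPM at 12 h and 28.7, 30.2 and 57 CPM at 20 h. The values of strain 11 in mixed culture were 188, 127 and 160.0 CPM and 11.6, 59.3 and 16.2 CPM. Those of strain 11 in single culture were 174, 159.6 and 307 CPM and 0, 35.9 and 67.8 CPM. No 20 h library reached a 12 h library of its own step in these 3. Log2 fold changes were -3.72 (SE 0.57, adjusted p = 7.76e-07), -2.59 (SE 0.72, adjusted p = 0.0196) and -2.71 (SE 0.74, adjusted p = 0.00379). The call in strain 11 in mixed culture was lost without replicate 1 or 3 of 12 h and without replicate 1 or 3 of 20 h.

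RPS11A (YDR025W, chrIV:491513-492322, plus strand) and RPS11B (YBR048W, chrII:332829-333810, plus strand) code for the same protein of the body, and in mixed culture the larger fall was in a different copy in each strain. RPS11B in strain 11 in mixed culture was at 146, 141 and 66.1 CPM at 12 h and at 0, 0 and 8.12 CPM at 20 h. RPS11A in strain 12 in mixed culture was at 194, 110.2 and 221 CPM at 12 h and at 5.74, 4.31 and 57 CPM at 20 h. Neither pair of groups overlapped. The log2 fold change of RPS11B in strain 11 was -4.71 (SE 0.96, adjusted p = 0.000893), where its 20 h libraries held 1 read in all, and that of RPS11A in strain 12 was -3.39 (SE 0.60, adjusted p = 1.44e-05). RPS11A in strain 11 in mixed culture had a log2 fold change of -1.29 that was not called, RPS11B in strain 12 one of -1.94 that was called, and neither copy was called in the interaction test between the strains, with log2 differences (strain 12 minus strain 11) of 2.78 (adjusted p = 0.457) for RPS11B and -2.09 (adjusted p = 0.442) for RPS11A.

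RPS11B was also low in strain 11 in single culture at 20 h, with 12.9, 17.9 and 0 CPM against 69.8, 49.7 and 130.5 CPM at 12 h, a log2 fold change of -2.89 (SE 0.90, adjusted p = 0.0118) that was not called without replicate 3 of 20 h. RPS24B (YIL069C, chrIX:231550-232366, minus strand), of the body, was at 75.8, 99.3 and 135 CPM and then at 0, 17.9 and 17 CPM in the same cultures, a log2 fold change of -3.18 (SE 0.95, adjusted p = 0.00821) that was not called without replicate 1 of 20 h. The groups did not overlap for either gene. In strain 12 in single culture RPS24B had 16, 15 and 5 reads at 12 h and 0 in every library of 20 h (edgeR adjusted p = 0.00592). Its mean at 12 h was 62.2 CPM (SD 50.9), which is 4.2 times a floor of 3 counts over the 3 libraries of 20 h, 14.8 CPM. That floor pools the libraries, while the mean weighs each library alike and its SD is large. The ratio is thus not a lower bound of the fall. RPS24B is a member of a pair whose reads may be shared with RPS24A.

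RPS26A and RPS2 were called lower in all 4 steps. RPS26A (YGL189C, chrVII:148235-148972, minus strand) was at 1706, 1563 and 1785 CPM in strain 12 in mixed culture at 12 h, at 204, 310.4 and 212 CPM at 20 h and at 306, 232 and 333 CPM at 30 h. Strain 11 in mixed culture had 810.2, 887 and 964 CPM, 255, 489.6 and 203 CPM and 243, 454 and 395 CPM. Every 12 h library was above every later library in both strains, and the log2 fold changes of RPS26A from 12 to 20 h were -2.79 (SE 0.33, adjusted p = 3.92e-09) and -1.53 (SE 0.33, adjusted p = 0.00188). RPS2 (YGL123W, chrVII:277623-278387, plus strand), which lies at the mRNA entry and takes part in decoding accuracy, was at 1171, 952 and 1121 CPM and 132, 138 and 228 CPM in strain 12 in mixed culture. It was at 683, 479 and 640.0 CPM and 278, 119 and 162 CPM in strain 11. The groups were separate for RPS2 too, with log2 fold changes of -2.74 (SE 0.38) and -1.68 (SE 0.39), both called.

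RPS3 (YNL178W, chrXIV:302682-303404, plus strand), a head protein at the mRNA entry, was called in strain 12 only. It went from 1008, 721 and 1319 CPM at 12 h to 146, 134 and 228 CPM at 20 h in strain 12 in mixed culture, and from 523, 338 and 582 CPM to 289, 282 and 276 CPM in strain 11. Groups did not overlap in either strain. The log2 fold changes of RPS3 were -2.62 (SE 0.37, adjusted p = 1.99e-07) and -0.78 (SE 0.38, adjusted p = 0.263), and the interaction test of this difference between strains had a log2 difference of -1.84 (SE 0.52) and an adjusted p of 0.098.

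Of the 34 tested genes, 16 were called lower at 20 h in all 4 steps, 5 in 3 steps, 5 in 2 and 8 in 1. These steps have no library in common. They are not independent, since both strains were sorted from the mixed cultures and all 4 steps share 1 estimate of spread. Among the 16 were RPS0B, RPS1A, RPS1B, RPS2, RPS9B, RPS10A, RPS11B, RPS15, RPS16A, RPS18A, RPS19B, RPS20, RPS22A, RPS26A and RPS31. RPS9A and RPS13, both for proteins of the body, were among the 8 called in 1 step only. RPS13 (YDR064W, chrIV:579457-580451, plus strand) was at 53.9, 74.5 and 126 CPM at 12 h and 38.7, 89.7 and 169.6 CPM at 20 h in strain 11 in single culture, where the groups overlapped and the log2 fold change was 0.21 (SE 0.58). In strain 12 in mixed culture it was at 202, 155 and 179 CPM and 28.7, 12.9 and 89.5 CPM, with no overlap and a log2 fold change of -2.22 (SE 0.54, adjusted p = 0.0014).

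**Figure D3:**
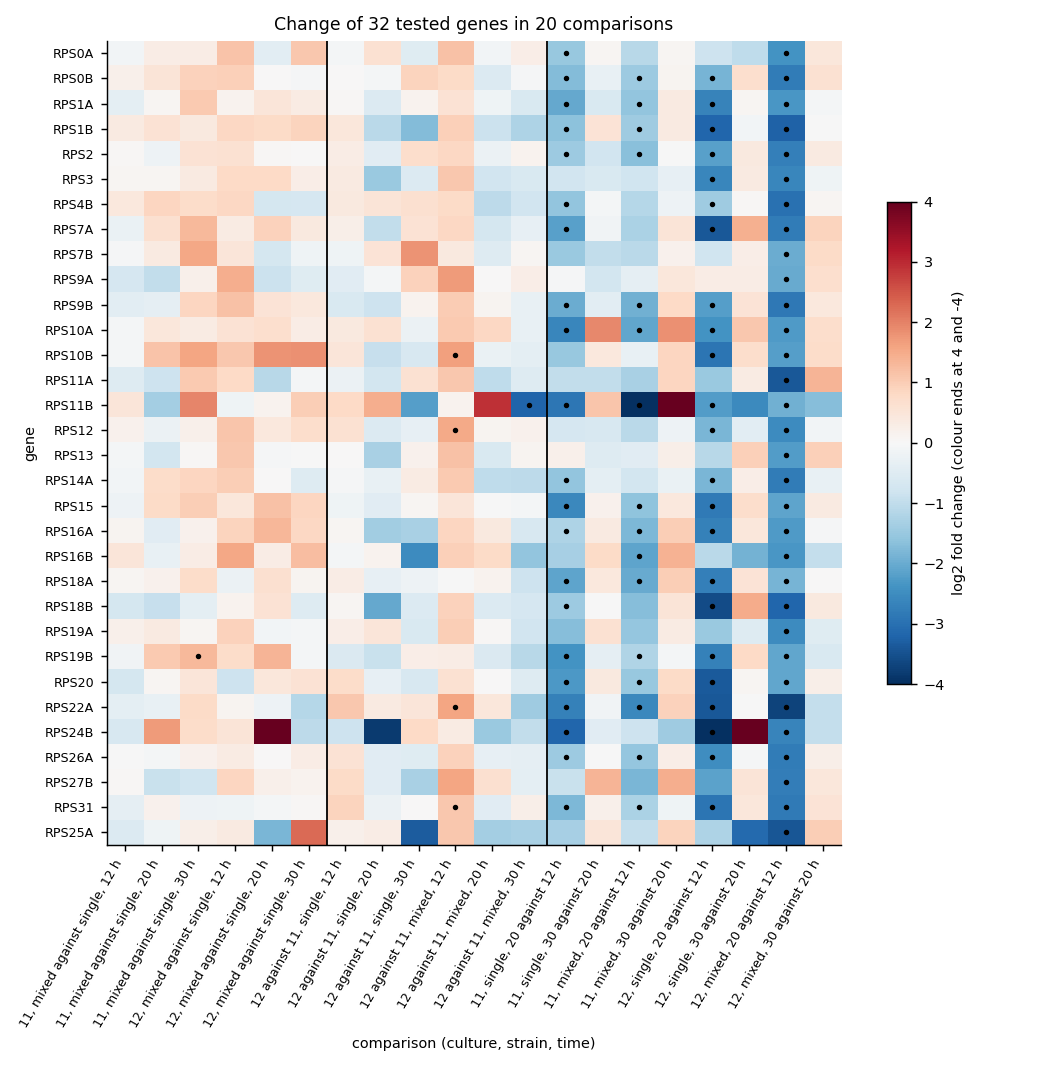
Log2 fold change (colour, red higher and blue lower in the condition named first) of 32 of the 34 tested genes, 1 per line, in the 20 comparisons, 1 per column. Vertical lines part the 6 comparisons of culture, the 6 of strain and the 8 of time, and black dots mark genes called by edgeR at an adjusted p of at most 0.05. Dots are dense in the 4 columns of 20 against 12 h, with 21, 16, 23 and 32 of the genes drawn, and number 6 elsewhere.

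The copies of RPS9 had different values over time, a difference that was not tested. RPS9B (YBR189W, chrII:604503-605503, plus strand) went in strain 11 in single culture from 648, 291 and 791 CPM at 12 h to 64.6, 144 and 237 CPM at 20 h, while RPS9A (YPL081W, chrXVI:404947-406041, plus strand) was at 65.8, 53.2 and 96.8 CPM and 51.6, 71.8 and 84.8 CPM. The RPS9B groups did not overlap and the RPS9A groups did. Log2 fold changes were -1.996 (SE 0.45, adjusted p = 0.000467) for RPS9B and -0.06 (SE 0.68, adjusted p = 0.96) for RPS9A. RPS9B was called lower in all 4 steps and RPS9A only in strain 12 in mixed culture, with log2 fold changes of -0.36 in strain 11 in mixed culture and 0.31 in strain 12 in single culture.

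Over the 12 libraries of 12 h, RPS9A held 11.8% of the reads of its pair (95% Wilson interval 10.4 to 13.3%), and over the 24 later ones 26.4% (22.5 to 30.6%). The pooled share was 9.1 to 14.4% in the 4 groups of 12 h and 19 to 42.9% in the 8 later groups, while single later libraries ran from 0 to 83.3%, on few reads. RPS7, a protein of the body, had 73.3% (70.9 to 75.6%) of its reads on the A copy at 12 h and 64.9% (59.9 to 69.6%) later, and RPS10 had 67.3% (65.1 to 69.5%) and 62% (58.1 to 65.7%). The pair RPS24, on few reads, went from 28.2 to 43.9%. For RPS16 it was 88.8% (87.6 to 89.8%) at 12 h and 88.8% (86.5 to 90.8%) later, and for RPS1, a protein of the platform, 72.3% (71.1 to 73.3%) and 71.7% (69.2 to 74.2%). In RPS19 the B copy was the main one, with 11.4% (10.2 to 12.8%) of the reads on RPS19A in strain 11 and 17% (15.2 to 18.9%) in strain 12. All these intervals pool the reads of many libraries and cover counting error only, and replicate libraries differed beyond it.

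**Figure D4:**
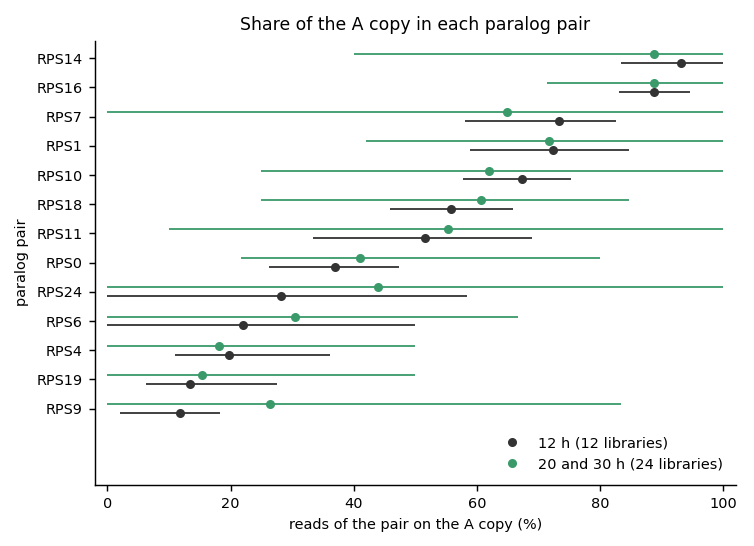
Percent of the reads of each paralog pair that fell on the A copy (horizontal) for 13 pairs (vertical), at 12 h and at 20 and 30 h. Points are reads pooled over libraries, and lines run from the lowest to the highest library. RPS9 moved from 11.8 to 26.4%, and RPS16 was at 88.8% in both. Lines of the later times are wide because pairs then held few reads in a library.

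From 20 to 30 h no gene was called in any strain and culture by edgeR, where 0.708% (strain 11, single), 0% (strain 11, mixed), 0.627% (strain 12, single) and 0.0272% (strain 12, mixed) of all genes were. At an unadjusted p under 0.05 there were 2, 3, 2 and 0 genes, and DESeq2 called 0 in each. Counts at an unadjusted p, here and below, are given without the share of all genes at that p. The member with the lowest p was RPS11B in both mixed cultures and RPS10A in strain 11 in single culture. RPS11B in strain 11 in mixed culture was at 0, 0 and 8.12 CPM at 20 h and at 92.5, 131 and 49.4 CPM at 30 h, so all 30 h libraries were above all 20 h libraries (log2 fold change 4.42, SE 1.02, adjusted p = 0.118). In strain 12 in mixed culture RPS11B was at 22.9, 38.8 and 40.7 CPM and 6.95, 7.72 and 19.6 CPM, in the other direction and without overlap (log2 fold change -1.71, SE 0.90, adjusted p = 0.916).

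In single culture, RPS10A of the head (YOR293W, chrXV:867097-867851, plus strand) was at 12.9, 35.9 and 119 CPM in strain 11 at 20 h and at 209, 207 and 196 CPM at 30 h, all higher, with a log2 fold change of 1.94 (SE 0.58, adjusted p = 0.104). It was called without replicate 3 of 20 h, at an adjusted p of 0.0493.

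Strain 12 and strain 11 were next compared in the same culture and time. In mixed culture at 12 h, 4 of the 34 genes were called higher in strain 12 and none lower, where 1.69% of all genes were higher. The median log2 fold change of the 34 was 0.96, against 0.04 for all tested genes, and 33 were above 0. An unadjusted p under 0.05 was found for 23, and the share of all genes at that p is not given here. For 24 of the 34 the 3 libraries of strain 12 lay wholly on one side of those of strain 11, against 28.3% of all tested genes. Over all 42, the mean was higher in strain 12 for 40 and all libraries were above those of strain 11 for 27. The summed share of reads was 1.97, 1.88 and 1.98% in strain 12 and 1.37, 1.12 and 1.39% in strain 11. Without replicate 2 of strain 11, the library with the lowest share, no gene was called. Without replicate 1 of strain 11 or replicate 3 of strain 12 a single gene was called (1), and without any other library 3. DESeq2 called 6, RLE factors gave 7, a replicate block 7 and a fit of the 6 libraries alone 13. The shares of all genes called under these settings are not given here, so the higher counts are no stronger result about these genes.

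RPS10B (YMR230W, chrXIII:732413-733140, plus strand), of the beak, was at 334, 651 and 217 CPM in strain 12 and at 98.9, 98.6 and 175 CPM in strain 11. RPS12 (YOR369C, chrXV:1028192-1028623, minus strand), also of the beak, was at 496, 310.5 and 881 CPM and 217, 84.5 and 262 CPM. RPS22A was at 334, 381 and 711 CPM and 188, 127 and 160.0 CPM. Every strain 12 library was above every strain 11 library for these 3 genes. The log2 fold changes were 1.64 (SE 0.44, adjusted p = 0.0162) for RPS10B, 1.53 (SE 0.43, adjusted p = 0.0197) for RPS12 and 1.58 (SE 0.47, adjusted p = 0.0365) for RPS22A. The call of RPS10B was lost without replicate 1 or 2 of strain 11 or replicate 2 of strain 12, that of RPS12 without replicate 2 of strain 11 or replicate 3 of strain 12, and that of RPS22A without any library of strain 11 or replicate 3 of strain 12, with adjusted p up to 0.258. RPS22A was not called by DESeq2 (adjusted p = 0.0869). The fourth gene called, RPS31, had a log2 fold change of 1.09 (SE 0.34, adjusted p = 0.0478), on the CPM values given above, which did not overlap.

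**Figure D5:**
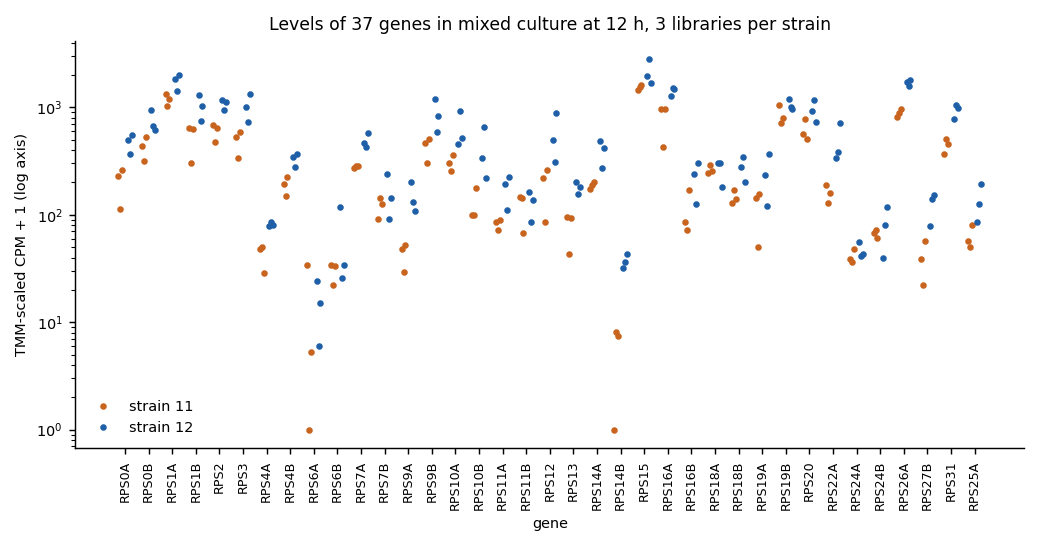
TMM-scaled CPM plus 1 (vertical, log axis) of 37 of the 42 genes (horizontal) in the 3 libraries of strain 11 and the 3 of strain 12 in mixed culture at 12 h. A point at 1 is a library without reads on the gene. For 26 of the genes drawn all strain 12 libraries are above all strain 11 libraries.

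Reads of the other strain were looked for in these sorted cells through genes chosen with their levels known. YNL284C-B, a retrotransposon gene with 49, 26 and 28 reads in strain 11 and 0 in each library of strain 12 in single culture at 12 h, held 6, 3 and 28 reads in strain 11 and 0, 0 and 2 in strain 12 in mixed culture. SSU1, a sulphite pump, held 17, 13 and 31 reads in strain 11 in mixed culture, against 4, 2 and 6 in strain 11 alone and 185, 251 and 198 in strain 12 in mixed culture. YHB1, a flavohaemoglobin, held 12, 14 and 39 reads in strain 11 in mixed culture, 9, 2 and 0 in strain 11 alone, and 125, 213 and 204 in strain 12 in mixed culture. At later times SSU1 again held more reads in strain 11 in mixed culture than in strain 11 alone. The reads were 4, 12 and 15 against 2, 0 and 0 at 20 h, and 26, 7 and 17 against 1, 2 and 1 at 30 h. YNL284C-B held 3, 1 and 1 reads in strain 12 in mixed culture at 20 h and 1, 0 and 1 at 30 h. The part of cells of the other strain was not tested, either in the differences between strains or in those between mixed and single culture, at any time.

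In single culture at 12 h no gene was called between the strains (1.04% of all genes in either direction, 2 genes at an unadjusted p under 0.05, 0 by DESeq2), and the median log2 fold change of the 34 was 0.22. The lowest p was that of RPS31, at 326, 1354 and 1523 CPM in strain 12 and 535, 656 and 513 CPM in strain 11. The groups overlapped through replicate 1 of strain 12. The log2 fold change was 0.89 (SE 0.34, adjusted p = 0.445), and without that library it was 1.36 (adjusted p = 0.00809).

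At 20 and 30 h 1 gene was called between the strains. The median log2 fold change of the 34 was -0.45 at 20 h and -0.10 at 30 h in single culture, and -0.24 and -0.52 in mixed culture. Of the 34 genes 25, 17, 21 and 26 were below 0 in that order, and of all 42 genes 28, 20, 30 and 33 had a lower mean in strain 12. In single culture none was called at 20 or 30 h (0.572 and 0.518% of all genes, 5 and 6 at an unadjusted p under 0.05, 0 by DESeq2). RPS16A (YMR143W, chrXIII:551927-552902, plus strand) had the lowest p at both times. It was at 60.6, 169 and 142 CPM in strain 12 and 297, 413 and 220.5 CPM in strain 11 at 20 h, and at 120.2, 209 and 163 and 271, 560.2 and 343 CPM at 30 h. Strain 12 was lower at both times without overlap, with log2 fold changes of -1.40 (SE 0.45, adjusted p = 0.222) and -1.31 (SE 0.39, adjusted p = 0.157).

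In mixed culture at 20 h none was called (0.191% of all genes, 3 at an unadjusted p under 0.05, 0 by DESeq2). RPS11B had the lowest p there, with 22.9, 38.8 and 40.7 CPM in strain 12 and 0, 0 and 8.12 CPM in strain 11 (log2 fold change 2.93, SE 1.13, adjusted p = 0.302). At 30 h RPS11B was the gene called, lower in strain 12, where 0.899% of all genes were called in either direction. Its level was 6.95, 7.72 and 19.6 CPM in strain 12 and 92.5, 131 and 49.4 CPM in strain 11, without overlap (log2 fold change -3.19, SE 0.83, adjusted p = 0.041). The strain 12 libraries held 1 read each, and the call was lost without replicate 2 of strain 11 and without any of the 3 libraries of strain 12.

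The presence of the other strain, the comparison around which the study was built, went with few calls among these genes. In strain 11 no gene was called at 12 h (8.61% of all genes in either direction) or at 20 h (4.99%), with 0 and 3 genes at an unadjusted p under 0.05 and 0 by DESeq2. The lowest p at 12 h was that of RPS20 (YHL015W, chrVIII:75409-75774, plus strand), at 565, 782 and 509.9 CPM in mixed and 882, 1057 and 1073 CPM in single culture, lower in mixed culture without overlap (log2 fold change -0.71, SE 0.39, adjusted p = 0.294). The median log2 fold change of the 34 was -0.08 at 12 h and 0.08 at 20 h.

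At 30 h 1 gene was called in strain 11, RPS19B (YNL302C, chrXIV:61958-62943, minus strand), where 2.45% of all genes were higher. It codes for a head protein needed for the maturation of the subunit. It was at 382, 316 and 356 CPM in mixed and 73.8, 192 and 147 CPM in single culture, and at 20 h at 405, 297 and 398 CPM and 116, 179 and 254 CPM. Mixed culture was higher without overlap at both times. The log2 fold changes were 1.299 (SE 0.37, adjusted p = 0.0309) at 30 h and 1.03 (SE 0.38, adjusted p = 0.0994) at 20 h. The call at 30 h was lost without any of 5 of the 6 libraries in turn (adjusted p 0.057 to 0.212). Of the 42 genes 34 had a higher mean in mixed culture at 30 h.

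In strain 12 no gene was called at 12 h (2.59% of all genes in either direction), with 15 of 34 at an unadjusted p under 0.05 and 0 by DESeq2. The share of all genes at that unadjusted p is not given here. The median log2 fold change of the 34 was 0.67, against -0.018 for all tested genes. Of the 34, 30 were above 0, and over all 42 genes 38 had a higher mean in mixed culture. The lowest p was that of RPS9B, at 1194, 586 and 829 CPM in mixed and 332, 387 and 433 CPM in single culture, without overlap (log2 fold change 1.18, SE 0.37, adjusted p = 0.0693). This comparison shares the libraries of strain 12 in mixed culture at 12 h with the comparison of the strains and with the step to 20 h, so the 3 are not independent.

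At 20 h none was called in strain 12 (1.28% of all genes), with 5 genes at an unadjusted p under 0.05, and DESeq2 called 3. RPS15 had the lowest p, at 508, 500.1 and 497 CPM in mixed and 194, 197 and 261 CPM in single culture, higher without overlap (log2 fold change 1.19, SE 0.34, adjusted p = 0.0627, and 0.0229 by DESeq2). At 30 h none was called (0.218% of all genes, 4 at an unadjusted p under 0.05, 0 by DESeq2).

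Differences between strains in these changes were tested as interactions in the same model, and no gene of the set was called in any of 10. Of all genes, 0.0817 and 0.0272% were called for the response to mixed culture, strain 12 minus strain 11, at 20 and 30 h, 2.64 and 0% for that of strain 11 between 12 and 20 h and between 20 and 30 h, 2.45 and 0% for that of strain 12, and 0% for the step from 20 to 30 h between strains in mixed culture. For the response to mixed culture at 12 h, strain 12 minus strain 11, the median of the 34 was 0.74, 5 genes had an unadjusted p under 0.05 and the smallest adjusted p was 0.137 (1.17% of all genes called). For the fall from 12 to 20 h, a contrast chosen after the data were seen, the median was -1.19 in mixed culture with 16 genes at an unadjusted p under 0.05 and a smallest adjusted p of 0.098 (0.654% of all genes called). In single culture the median was -0.66, with 6 genes at an unadjusted p under 0.05 and a smallest adjusted p of 0.453 (0% of all genes called). A larger fall in strain 12 was thus not shown for any single gene. Of the 34, 3 were above 0 in mixed and 9 in single culture, where the medians of all genes were 0.018 and -0.023. The difference of the set as a whole was not tested.

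Other genes of the translation machinery were counted beside the set. They had to pass the same filter, which a gene could do through its 12 h libraries alone. Directions of their untested genes are not given. Of 82 genes for proteins of the large subunit 60 could be tested, and between 12 and 20 h 35 were lower in strain 11 in single culture, 23 in strain 11 in mixed, 47 in strain 12 in single and 60 in strain 12 in mixed culture, none higher. Their median log2 fold changes in that order were -1.55, -1.45, -2.34 and -2.49, against -1.55, -1.44, -2.35 and -2.52 for the small-subunit genes. Of the 15 small-subunit genes outside the list 5 were tested, and 3, 1, 4 and 5 were lower. The largest change among them, in strain 12 in single culture, was that of RPS26B, paralog of RPS26A, from a mean of 1005 CPM to 84.8 CPM (log2 fold change -3.36, SE 0.55, adjusted p = 2.49e-06). ASC1, which sits at the head and links the ribosome to signalling, went from 863 to 84.7 CPM in strain 12 in mixed culture (log2 fold change -3.35, SE 0.41, adjusted p = 8.03e-09).

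Of 25 translation factors 19 were tested, and 8, 2, 6 and 12 were lower at 20 h, none higher. YEF3, the elongation factor particular to fungi, went from a mean of 6089 to 1744 CPM in strain 12 in mixed culture (log2 fold change -1.80, SE 0.28, adjusted p = 1.28e-06). Of 16 assembly factors of the small subunit 9 were tested, and 1 was called in each step, TSR3, higher at 20 h. A share of 1 in 9 is near the 15.1, 13.2 and 11.6% of all genes called higher in 3 of the steps. TSR3, which modifies the ribosomal RNA, went from 12.9 to 196 CPM in strain 11 in single culture (log2 fold change 3.78, SE 0.54, adjusted p = 1.54e-07).

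Of the 16 known regulators all were tested, and 2 were higher and 1 lower in strain 11 in single culture, 1 higher in strain 12 in single culture, and 3 higher and 1 lower in strain 12 in mixed culture. These counts lie near or under the shares of all genes called higher or lower in the same steps. The largest was 3 of 16 higher in strain 12 in mixed culture, where 11.6% of all genes were higher. It is too small a count to be set apart from that share. The medians of all 16 were 0.191 and 0.335 in strain 11 in single and mixed culture, and 0.076 and 0.325 in strain 12. YAK1, a kinase that acts when protein kinase A is inactive, went from 519.5 to 1363 CPM in strain 12 in mixed culture (log2 fold change 1.38, SE 0.33, adjusted p = 0.00109). CRF1, which takes the place of Ifh1 on Fhl1, went from 15.5 to 70.9 CPM (log2 fold change 2.02, SE 0.71, adjusted p = 0.0299) and RAP1 from 185 to 87.3 CPM (log2 fold change -1.08, SE 0.40, adjusted p = 0.0445) in the same step. The remaining gene called higher in this step and the genes called in the single cultures are not named here. For FHL1, IFH1 and SFP1 no change was called in the 4 steps.

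All 12 general stress genes counted beside them were called higher at 20 h in 3 of the steps, and 8 in strain 11 in mixed culture, with medians of 2.80, 1.18, 3.19 and 2.09 in the order used above, against 15.1, 3.05, 13.2 and 11.6% of all genes called higher. HSP104, a chaperone that dissolves aggregates, went from 732 to 6483 CPM in strain 12 in single culture (log2 fold change 3.15, SE 0.30, adjusted p = 1.07e-12). In strain 11 at 12 h the stress genes were already higher in mixed than in single culture, 8 of 12 called with a median of 1.16, where no small-subunit gene was called. Of the 3670 tested genes 193 were called higher in that comparison. HSP12, a membrane-stabilising protein, was at 409 CPM in mixed and 38.3 CPM in single culture there (log2 fold change 3.39, SE 0.45, adjusted p = 7.02e-08). In the comparison of the strains in mixed culture at 12 h, 5 of the 12 were lower in strain 12 and none higher. Of the 3670 tested genes 123 were called lower in strain 12 and 62 higher.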

How the data were processed

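RNA of sorted cells was amplified and sequenced on a SOLiD instrument with reads of 75 bases. The authors deposited, for each of the 36 libraries, whole-number read counts per gene and per exon and RPKM values per gene. The submitters' processing notes name Cufflinks 1.3.0, Cuffdiff and Saccer2. For multiply matching reads and for strand, the treatment is not given in the sources used here. RPKM values deposited by the authors could be recomputed from the counts for 100% of genes within 0.02.

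The counts of genes were tested here with edgeR 4.0.16 (R 4.3.3). Genes were kept by filterByExpr, libraries were scaled by TMM (factors 0.888 to 1.08), and 1 quasi-likelihood model over the 12 groups and 36 libraries gave 20 comparisons and 10 interactions, with Benjamini-Hochberg adjustment over the 3670 genes. The common dispersion was 0.0833. Replicate libraries differed beyond counting noise (chi-square per degree of freedom at least 2.01). The script was tested on simulated data. Libraries were taken as paired by replicate number where all 3 correlations passed a set cut. This held in the comparison of strains in single culture at 12 h only (0.36, 0.22 and 0.26), where the block called 0 genes as well. In mixed culture at 12 h the correlations were 0.139, 0.065 and 0.142. Both strains of a mixed culture were sorted from it, so their libraries can be paired by design, which the main tests did not use. Coding and upstream sequences were read from the RefSeq annotation of R64.

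The 42 members and the lists of other genes were chosen with earlier results of these data known. Genes given with all their values were, for each comparison, up to 3 called in each direction with the largest log2 fold change and no overlap of groups, or otherwise the one with the lowest p, with RPS15, RPS6A and RPS31 added for abundance and the ubiquitin fusion. RPS2, RPS3, RPS9A, RPS9B, RPS13 and RPS26A in the time steps were chosen after their values were seen. Some members enter the counts over the whole set but are not reported individually here. Alternatives were RLE factors, TMM factors without ribosomal protein genes, DESeq2 1.42.0, no filter, a fit of the 6 libraries compared, a replicate block, paralog pairs added up, and each library left out.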

Additional observations from a re-analysis of the deposited data

How the results depend on the processing

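Shares of all genes called under the alternatives are not given, so a higher count alone is no stronger result about these genes. The count of called genes moved by over 1.5 times in the following cases. For strain 12 against strain 11 in mixed culture at 12 h (4 genes), it was 7 with RLE factors, 7 with a replicate block and 13 with the 6 libraries alone, and 0 to 3 without 1 library. In strain 11 in mixed against single culture at 30 h (1 gene) it was 0 without the filter, 0 with 6 libraries, 3 with DESeq2, 0 with paralog pairs added up and 0 to 2 without 1 library. In strain 12 in mixed against single culture it was, at 12 h, 2 with pairs added up (both copies of RPS9, counted as 2 genes of 1 called pair) and 0 to 2 without 1 library, and at 20 h 2 without the filter, 1 with 6 libraries and 3 with DESeq2 (0 genes otherwise). For strain 12 against strain 11 in mixed culture at 30 h (1 gene) it was 0 with 6 libraries, 0 with pairs added up and 0 to 1 without 1 library, and in single culture at 12 h 0 to 1 without 1 library. From 20 to 30 h it was 0 to 1 without 1 library in strain 11 in single culture and 1 without the filter in mixed culture. From 12 to 20 h in strain 11 in mixed culture it was 10 to 15 without 1 library. The cause of these differences was not tested, except that the fit of 6 libraries and the one of pairs test other numbers of genes. The replicate block moved no other count by over 1.5 times. In the comparison where it did, the replicate numbers fell short of the cut for pairing, and both strains there were sorted from mixed cultures. TMM factors without ribosomal protein genes moved none, and no named change turned its direction under any alternative run. Relative to the main scaling, the median of all genes shifted by -0.112 with RLE factors in the 12 to 20 h step of strain 12 in mixed culture. Low counts limit the later times, when many of the genes held under 10 reads in a library.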
